A study of Mus musculus with 6 samples.

Results

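The Hox genes are the homeobox genes of the Hoxa, Hoxb, Hoxc and Hoxd clusters, and their transcripts were followed here through the cell types of the fetal mouse gonad. Members were all listed genes whose symbol is Hoxa, Hoxb, Hoxc or Hoxd followed by a number, which gave 39 of the 26251 genes listed in any of the 6 libraries (11 Hoxa, 10 Hoxb, 9 Hoxc and 9 Hoxd genes). Of these, 36 were listed in all 6 libraries. Hoxa13 was listed in 5, Hoxb13 in 4 and Hoxc12 in 1, and a gene that a library did not list was taken as 0 UMIs there.

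Single cells were sequenced from gonads of E15.5 mouse embryos of 3 groups with 2 libraries each. Control XY and control XX embryos were Amh+/+; Inhbb+/+, and dKO XY embryos were Amh -/-; Inhbb -/-, which lack anti-Müllerian hormone and the beta B subunit of activin B throughout the body. The animals were bred from Amh and Inhbb knockout mice on a C57BL/6 background. Both gonads of an animal were pooled, and the dissociated cells were frozen and thawed before droplet capture, so p-values measure the spread between libraries made in this way.

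Hox proteins are transcription factors that give cells of the embryo their position along the body axis. The genes of a cluster are ordered as they are used along that axis, from group 1 at the anterior end to group 13 at the posterior end, and genes with the same number in different clusters are paralogs. Hox proteins bind DNA together with TALE homeodomain proteins of the Pbx, Meis and Pknox families, and in the urogenital tract the posterior members are known for patterning the ducts along their length.

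On the GRCm38 build the Hoxa members span chr6:52155590-52260880 (105.3 kb), the Hoxb members chr11:96194316-96368256 (173.9 kb), the Hoxc members chr15:102921103-103036852 (115.8 kb) and the Hoxd members chr2:74668310-74765142 (96.83 kb). Exons of 9 members overlap those of another gene on the same strand, and exons of 10 overlap a gene on the opposite strand. Hoxd3 and Hoxd4 share 62.35% and 52.31% of their exon bases with genes of the same strand, and a separate entry named Hoxd4.1 lies outside the rule, so the levels of Hoxd3 and Hoxd4 are uncertain. Levels of Hoxc5 and Hoxc10, which share 166 exon bases, may also be split between them.

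The libraries held 68064 barcodes, of which 39350 had more than 2500 and fewer than 9000 genes, under 25% mitochondrial UMIs and under 20% Hbb UMIs. A UMI is a transcript molecule counted by its molecular barcode, and the kept cells carried between 118475468 and 221675316 UMIs per library. High mitochondrial shares marked 24.4% and 28.3% of the dKO XY barcodes and 2.22% to 9.35% in the other libraries. Pairs of libraries shared 4 to 25 barcodes. Clustering without the Hox genes gave 13 clusters, named from marker genes as supporting, interstitial, Leydig, germ, endothelial, pericyte, epithelial, immune and erythroid cells. In supporting cells Amh was at 18.0 and 15.7 CPM in dKO XY and 2052 and 1923 CPM in control XY, and Inhbb at 41.99 and 51.2 CPM and 162 and 187 CPM, so both targeted genes were low in the libraries labelled as their knockout. CPM is the UMI count scaled to a fixed total of 1000000 UMIs over the cells of that type in that library, and it was not divided by transcript length.

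Of the 39 members, 22 reached a mean of 5 CPM or more in some cell type. The other 17 included Hoxa2, Hoxa4, Hoxa6, Hoxa11, Hoxa13, Hoxb1, Hoxb6, Hoxb13, Hoxc11, Hoxc12, Hoxc13, Hoxd1, Hoxd3, Hoxd4, Hoxd12 and Hoxd13, and their highest means ran from 0.0018 CPM (Hoxc12, 1 UMI in all kept cells) to 4.65 CPM (Hoxb6 in endothelial cells). All measured members of groups 12 and 13 were among them, and Hoxd11 was the member of group 11 that was not. The posterior ends of the clusters thus gave few or no UMIs in the gonadal cell types at this depth.

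In interstitial cells, the mesenchyme between the gonadal cords, Hoxd9 ran from 79.8 to 197 CPM over the 6 libraries with a median of 157 CPM (mean 143 ± 49.4, SD, n = 6). Hoxd8 (76.9 ± 35.5), Hoxc6 (59.1 ± 10.2), Hoxc8 (53.9 ± 18.7) and Hoxd10 (49.7 ± 15.4) CPM followed. Hoxd8, Hoxd9 and Hoxd10 had their highest mean in these cells, and their wide SDs come with a difference between XX and XY libraries described further on.

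In epithelial cells, the covering layer of the gonad, the 5 highest members were Hoxd9 (108 ± 22.2), Hoxc8 (89.1 ± 49.5), Hoxc6 (69.8 ± 12.3), Hoxd8 (56.9 ± 11.2) and Hoxd10 (36.0 ± 9.02) CPM (SD, n = 6). Hoxc4, Hoxc5, Hoxc6, Hoxc8 and Hoxd11 had their highest mean there among the 22. In pericytes, the contractile cells around small vessels, they were Hoxd9 (90.6 ± 25.2), Hoxc6 (53.9 ± 7.70), Hoxd8 (52.2 ± 14.8), Hoxb2 (48.8 ± 34.8) and Hoxc8 (38.6 ± 4.58) CPM (SD, n = 6). Hoxb2, Hoxb3, Hoxc9, Hoxc10 and Hoxa10 peaked in pericytes.

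Endothelial cells, which line the vessels, used another set. The 5 highest members were Hoxd8 (49.1 ± 2.14), Hoxb7 (37.2 ± 8.75), Hoxb9 (33.1 ± 4.01), Hoxa7 (31.2 ± 6.01) and Hoxd9 (27.5 ± 3.29) CPM (SD, n = 6), and Hoxa3, Hoxa5, Hoxa7, Hoxa9, Hoxb4, Hoxb5, Hoxb7, Hoxb8 and Hoxb9 had their highest mean there. Hoxc6, abundant in the mesenchymal types, averaged 4.41 ± 2.10 CPM. In Leydig cells, the steroid-producing cells of the fetal testis, the highest were Hoxd9 (51.2 ± 6.48), Hoxd8 (50.9 ± 9.54), Hoxc6 (24.9 ± 5.06), Hoxd10 (13.3 ± 2.10) and Hoxc8 (13.0 ± 3.32) CPM (SD, n = 4 XY libraries).

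Supporting cells, which form Sertoli cells in the testis and granulosa cells in the ovary, held Hoxd9 (28.3 ± 5.22), Hoxb9 (25.7 ± 14.7), Hoxc6 (20.7 ± 10.6), Hoxc8 (19.2 ± 17.8) and Hoxd8 (14.0 ± 4.56) CPM (SD, n = 6). Germ cells held Hoxd8 (12.6 ± 8.23), Hoxd9 (11.6 ± 8.01), Hoxc6 (4.91 ± 1.87), Hoxc8 (3.56 ± 2.46) and Hoxc9 (3.26 ± 3.86) CPM (SD, n = 5, since control XY 2 had 7 germ cells and was left out). The Hoxc9 mean there was carried by 5 UMIs in the 15 germ cells of control XY 1, and the other libraries held 0.842 and 1.19 CPM in dKO XY and 2.38 and 1.80 CPM in control XX. Immune cells held Hoxd9 (20.9 ± 14.3), Hoxd8 (12.1 ± 8.42), Hoxc6 (6.93 ± 4.18), Hoxd10 (5.50 ± 4.35) and Hoxc8 (3.56 ± 2.19) CPM (SD, n = 6). The 73 erythroid cells were not tested.

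**Figure D1:**
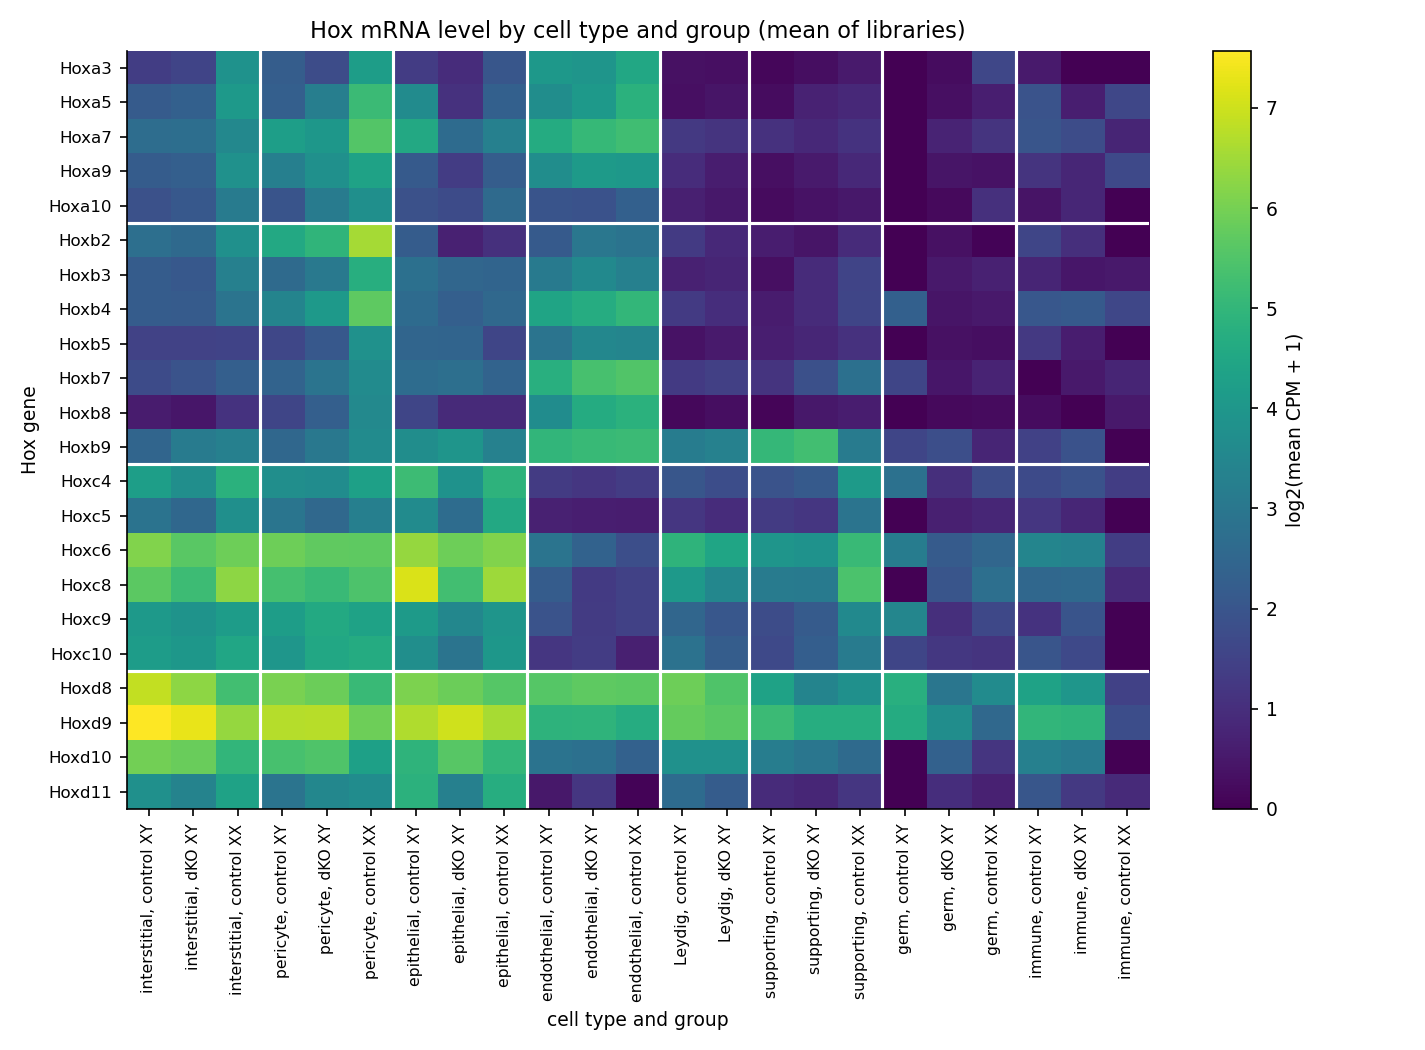
Mean level over libraries, as log2(mean CPM + 1), of the 22 members that reach 5 CPM in some cell type (rows, ordered along the clusters) in each cell type and group (columns). Hoxa and Hoxb members are brightest in endothelial cells and pericytes, Hoxc and Hoxd members in interstitial, pericyte and epithelial cells, and Hoxb9 is the bright Hoxb member in XY supporting cells.

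Free RNA of interstitial cells, the most abundant type, can enter any droplet, so Hox sums were set beside the summed interstitial markers (among them Tcf21, Pdgfra, Nr2f2, Col1a1, Col3a1, Dcn, Lum and Ptch1). In immune cells the markers stood at 1.22%, 14.8% and 13.9% of their interstitial level in control XX, control XY and dKO XY, and the Hoxd sum at 2.93%, 16.5% and 18.0%. In germ cells the markers stood at 4.58%, 14.4% and 7.09% and the Hoxd sum at 12.2%, 13.5% and 8.33%. Hoxd levels close to the marker share are not read as expression in these types. Germ cells of control XX had the widest gap. In supporting cells the markers stood at 8.71%, 16.1% and 12.4% and the Hoxd sum at 26.3%, 16.7% and 14.1%. The XY Hoxd levels listed for supporting cells are thus also close to the marker share and are not read as expression there. Over the libraries, the Hoxc sum ran from 17.1% to 55.6% of the interstitial level in supporting cells. It ran from 8.16% to 14.5% in germ cells and from 1.34% to 20.7% in immune cells. Hoxc levels close to the marker share are likewise not read as expression. In supporting cells the Hoxb sum stood at 46.7%, 152.9% and 174%, and Hoxb9 made most of it in the XY groups. In control XY 7 of the 8 Hoxb members tested were lower in supporting than in interstitial cells, and Hoxb9 alone was higher.

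Endothelial cells departed from that ratio. Their interstitial markers stood at 4.96%, 9.75% and 9.93%, their Hoxb sum at 374%, 488% and 607%, and their Hoxc sum at 4.03%, 9.27% and 7.99% of the interstitial level. The endothelial Hoxc level is thus at the marker share, and the Hoxb level far above it.

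The Hoxd and Hoxb clusters were highest in different cell types among those listed here for control XY. In control XY the Hoxd sum was 384 ± 28.4 CPM in interstitial cells, 221 ± 1.87 in pericytes, 132 ± 13.0 in Leydig cells, 83.4 ± 1.75 in endothelial cells and 64.0 ± 3.504 in supporting cells (SD, n = 2). The Hoxb sum was 112 ± 3.22 CPM in endothelial cells, 52.0 ± 0.311 in pericytes, 35.1 ± 5.35 in supporting cells, 22.9 ± 1.16 in interstitial cells and 13.5 ± 0.322 in Leydig cells. Neighbouring values in both orders lie further apart than their SDs. Interstitial cells had the highest of these Hoxd sums and endothelial cells the highest of these Hoxb sums. Hoxb9 made most of the supporting-cell Hoxb sum. The order did not hold in every library of the 3 groups. The pericyte Hoxb sum reached 222 CPM, above the endothelial highest of 174 CPM. The epithelial Hoxd sum, not listed above, reached 119% of the interstitial sum of the same library.

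**Figure D2:**
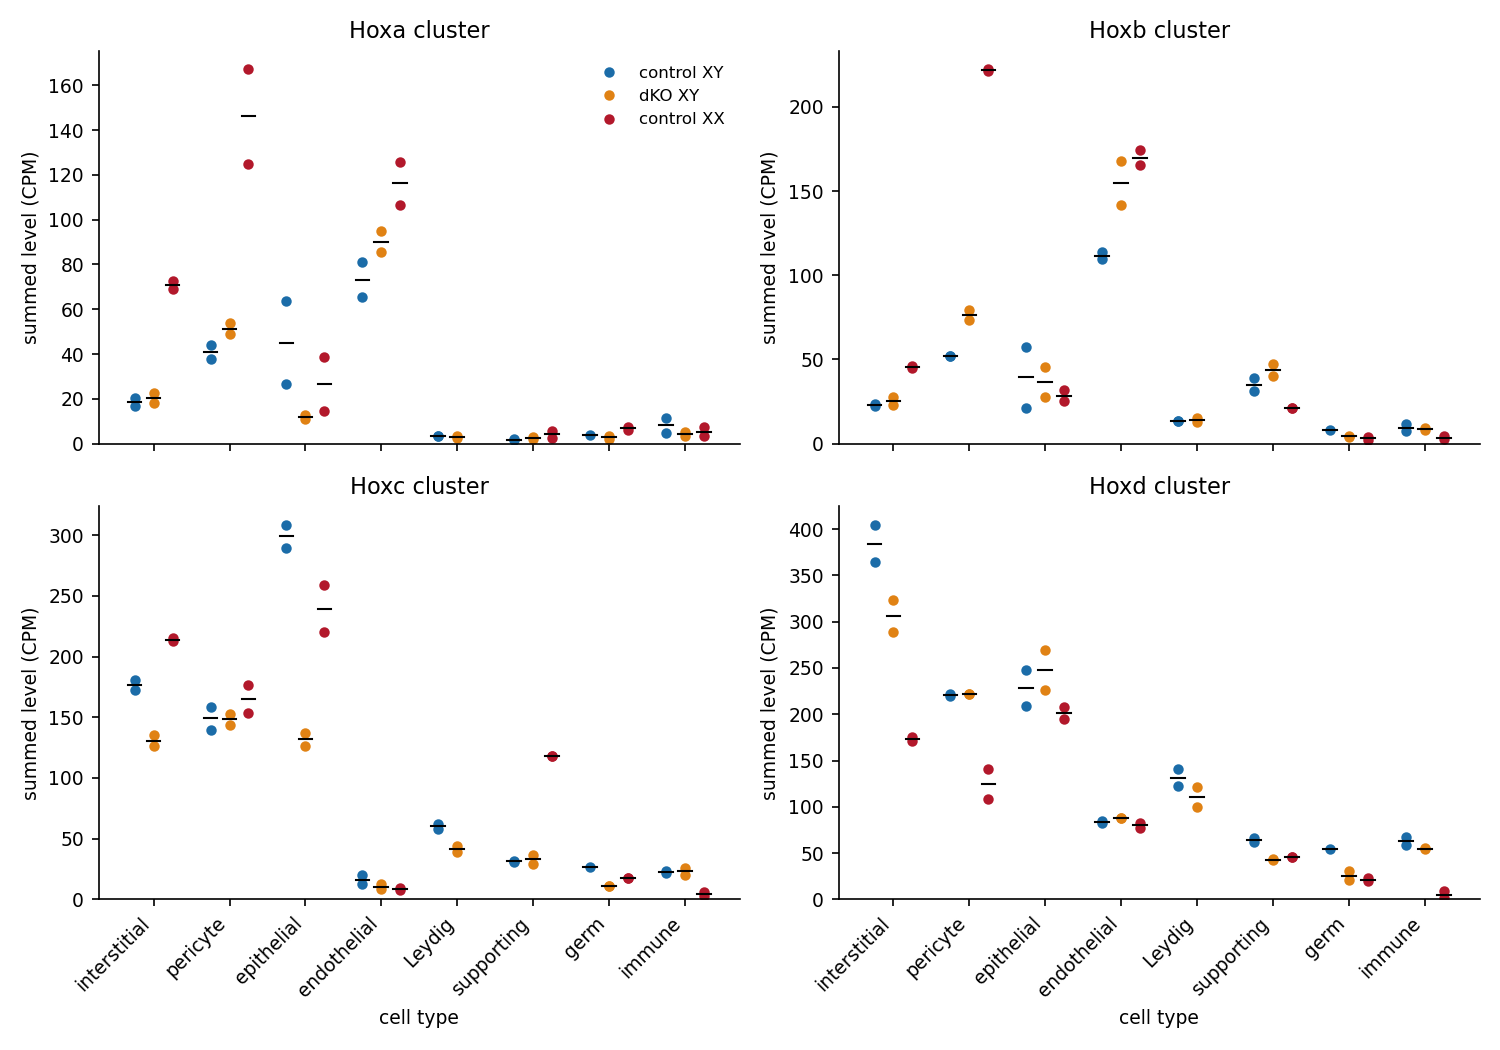
Summed CPM of the Hoxa, Hoxb, Hoxc and Hoxd members by cell type, with a point for each library, a black line for the group mean and colours for control XY, dKO XY and control XX. In interstitial cells and pericytes the Hoxa and Hoxb sums of control XX lie above both XY groups and the Hoxd sums below them.

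By position, groups 1 to 3 summed to 14.7 ± 0.643 CPM, groups 4 to 8 to 280.1 ± 9.63, groups 9 to 11 to 308 ± 21.5 and groups 12 and 13 to 0.0496 ± 0.00360 CPM in control XY interstitial cells. Endothelial cells of the same libraries gave 30.0 ± 1.49, 169 ± 2.45, 85.8 ± 2.05 and 0 CPM. Endothelial cells thus carried more of groups 4 to 8 than of groups 9 to 11. The interstitial sums of these 2 blocks differed by about their SDs.

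Most members of a cluster varied together, with exceptions. Over 45 sums of a library and a cell type, the median Pearson r of log2(CPM + 1) was 0.855 for the 52 pairs of the same cluster, 0.362 for the 18 pairs of the same paralog group and 0.436 for the 161 other pairs of the 22 members. The highest values were those of Hoxd9 with Hoxd10 (0.940), Hoxc6 with Hoxc8 (0.939) and Hoxc6 with Hoxc10 (0.932). The lowest value within a cluster was that of Hoxb9 with Hoxb2 (0.237), and Hoxb9 with Hoxb4 was at 0.383. Pairs across clusters reached 0.912 (Hoxb3 with Hoxa7), and Hoxd11 was at 0.867 with Hoxc8 and 0.573 with Hoxd8. These are descriptions, since sums of a library share its depth and its free RNA.

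With every cell thinned to 5000 UMIs, pericytes held UMIs of 2.24 members per cell on average, epithelial cells 2.06, interstitial cells 2.06, endothelial cells 1.44, Leydig cells 0.882, supporting cells 0.636, germ cells 0.264 and immune cells 0.218.

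Each cell type was tested against the interstitial cells of the same libraries with edgeR's quasi-likelihood test, with the library as a block and a call at a Benjamini-Hochberg adjusted p under 0.05. In endothelial cells, 13 of the 29 members that passed the filter on low counts were higher and 11 were lower, against 33.7% and 38.1% of all 14060 genes tested. The 13 higher members were 6 Hoxa and 7 Hoxb genes, and the 11 lower ones 6 Hoxc and 5 Hoxd genes. Hoxb7 ran from 26.3 to 48.4 CPM (median 39.9) in endothelial and from 2.31 to 4.40 CPM (median 2.82) in interstitial cells, with no overlap (log2 fold change 3.73 ± 0.11, SE, adjusted p = 3.4e-08).

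Hoxb8 (5.14 ± 0.28), Hoxb4 (2.62 ± 0.13), Hoxb9 (2.36 ± 0.14) and Hoxa7 (2.24 ± 0.14) were higher in endothelial cells on the log2 scale, and Hoxc6 (-3.68 ± 0.19), Hoxc4 (-3.67 ± 0.20) and Hoxd10 (-3.05 ± 0.18) were lower. The means of Hoxb8 were 21.3 against 0.676 CPM, those of Hoxb9 33.1 against 7.10 CPM and those of Hoxc6 4.41 against 59.1 CPM. The share of members called lower is close to that of all genes, and nothing is read from it.

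In pericytes 15 of 28 members were higher than in interstitial cells and 3 lower, against 19.9% and 21.8% of 13777 genes. Hoxb2 was between 21.9 and 94.5 CPM (median 30.1) in pericytes and between 4.94 and 14.7 CPM (median 5.80) in interstitial cells, without overlap (2.55 ± 0.14, adjusted p = 1.5e-06). Hoxa7 (1.77 ± 0.15), Hoxb8 (2.96 ± 0.29), Hoxb4 (2.28 ± 0.23), Hoxb7 (1.29 ± 0.18), Hoxa9 (1.30 ± 0.19) and Hoxb3 (1.15 ± 0.18) were higher too, and Hoxd9 (-0.57 ± 0.07), Hoxd8 (-0.43 ± 0.10) and Hoxd10 (-0.50 ± 0.12) were the 3 lower ones. Without the block 8 members were called, and Hoxd9, Hoxa9 and Hoxb3 lost their calls. The summed endothelial markers, given further on, were higher in control pericytes than in most control interstitial cells. They moved with the higher Hoxa and Hoxb members, and their part was not tested.

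In epithelial cells 3 of 27 members were higher and 5 lower, against 19.5% and 17.8% of 14056 genes, shares close to or above those of the members. Hoxc5 (0.65 ± 0.16), Hoxc6 (0.26 ± 0.07) and Hoxb7 (0.78 ± 0.23) were higher and Hoxb2 (-2.64 ± 0.47), Hoxc10 (-0.72 ± 0.14), Hoxa2 (-2.24 ± 0.50), Hoxa3 (-1.44 ± 0.38) and Hoxa9 (-1.41 ± 0.42) lower. Without dKO XY 1 or without control XX 2 the test called 5 members, and without the block 2. Hoxc5, Hoxc6, Hoxa3 and Hoxa9 lost their calls without control XX 2, Hoxa3 without control XX 1, Hoxc6 and Hoxa9 without dKO XY 1, Hoxa9 without dKO XY 2, Hoxc6 without control XY 2, and Hoxb7 without each library other than control XX 2. Interstitial markers in epithelial cells stood at 43.9%, 92.3% and 36.6% of their interstitial level in control XX, control XY and dKO XY, on 30 and 41 epithelial cells in control XY, and their part in these values was not tested.

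In Leydig cells 27 of 28 members were lower and 1 higher, against 40.3% and 37.7% of 15937 genes. The higher member was Hoxb9, with 7.42 and 8.57 CPM in control XY and 8.67 and 9.51 CPM in dKO XY against 4.34 and 4.72 and 7.75 and 8.17 CPM in interstitial cells, each library higher in its Leydig cells (0.72 ± 0.15, adjusted p = 0.0040). Hoxd10 (-1.95 ± 0.06), Hoxc4 (-2.22 ± 0.07), Hoxd9 (-1.54 ± 0.05), Hoxc6 (-1.04 ± 0.04), Hoxc8 (-1.51 ± 0.06), Hoxc5 (-2.08 ± 0.11), Hoxd3 (-2.40 ± 0.13) and Hoxa5 (-3.44 ± 0.19) had the smallest p among the lower ones. The 11 Sertoli markers summed to 1358 and 1463 CPM in control XY Leydig cells against 99.3 and 157 CPM in the interstitial cells, and to 1449 and 1334 CPM against 163 and 175 CPM in dKO XY, moving with Hoxb9, and their part was not tested. Interstitial markers stood at 13.9% and 16.8% of their interstitial level in control XY and dKO XY Leydig cells and the Hoxd sum at 34.2% and 36.0%.

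Immune cells had 22 of 24 members lower and 0 higher in edgeR, against 33.1% and 31.5% of 14176 genes, with 22 members at an unadjusted p under 0.05 and 23 called by DESeq2. Hoxd8 (-2.31 ± 0.20), Hoxc8 (-3.13 ± 0.31), Hoxc6 (-2.56 ± 0.25) and Hoxd10 (-2.74 ± 0.27) were among those of smallest p. Germ cells had 25 of 26 lower and 1 higher, against 33.5% and 27.8% of 14562 genes, with Hoxc6 (-3.67 ± 0.18), Hoxd9 (-3.78 ± 0.21), Hoxc8 (-3.75 ± 0.28) and Hoxd10 (-4.27 ± 0.36) of smallest p.

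The higher member in germ cells was Hoxd1, at the anterior end of its cluster, which is named after its values were seen. It was at 0.907 and 1.39 CPM in germ cells of dKO XY, 2.69 and 2.96 CPM in control XX and 2.02 CPM (1 UMI) in control XY 1, against 0.0785 to 0.196 CPM in interstitial cells (3.63 ± 0.53, adjusted p = 6.2e-04). It rests on 78 UMIs in germ cells.

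Control XX and control XY interstitial cells were compared to ask how Hox levels differ between ovary and testis. Of 32 members tested, 18 were higher in control XX and 3 lower, against 12.0% and 13.3% of all 16989 genes. The higher members were 9 Hoxa, 6 Hoxb and 3 Hoxc genes, and the lower ones Hoxd8, Hoxd9 and Hoxd10. The median log2 fold change was 2.32 over 10 Hoxa, 0.99 over 8 Hoxb, 0.36 over 7 Hoxc and -0.75 over 7 Hoxd members, beside -0.0033 over all genes.

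For these clusters the sequence before a transcription start is shown for a member each, chosen as the one with a RefSeq window and the smallest p in this comparison. Each window runs from 250 bases before to 50 bases after the start on the gene strand (RefSeq, GRCm38.p6, 5′ to 3′), and capitals mark matches to the motifs searched. They are Hoxa3 (chr6:52213018-52213317, minus strand, log2 fold change 3.12 ± 0.24), Hoxb4 (chr11:96318017-96318316, plus strand, 0.95 ± 0.20), Hoxc4 (chr15:103034145-103034444, plus strand, 0.71 ± 0.10) and Hoxd8 (chr2:74704365-74704664, plus strand, -1.56 ± 0.12).
Hoxa3: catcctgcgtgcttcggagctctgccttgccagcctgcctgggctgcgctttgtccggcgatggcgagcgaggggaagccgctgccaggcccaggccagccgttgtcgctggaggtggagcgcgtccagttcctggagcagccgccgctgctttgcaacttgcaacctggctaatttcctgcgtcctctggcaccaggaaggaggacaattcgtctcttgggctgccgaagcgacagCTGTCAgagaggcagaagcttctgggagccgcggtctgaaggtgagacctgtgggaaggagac
Hoxb4: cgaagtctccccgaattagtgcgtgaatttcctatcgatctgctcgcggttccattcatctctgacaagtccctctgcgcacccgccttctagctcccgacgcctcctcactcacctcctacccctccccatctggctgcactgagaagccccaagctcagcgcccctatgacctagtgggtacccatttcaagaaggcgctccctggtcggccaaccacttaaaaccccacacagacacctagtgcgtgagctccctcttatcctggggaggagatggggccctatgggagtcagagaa
Hoxc4: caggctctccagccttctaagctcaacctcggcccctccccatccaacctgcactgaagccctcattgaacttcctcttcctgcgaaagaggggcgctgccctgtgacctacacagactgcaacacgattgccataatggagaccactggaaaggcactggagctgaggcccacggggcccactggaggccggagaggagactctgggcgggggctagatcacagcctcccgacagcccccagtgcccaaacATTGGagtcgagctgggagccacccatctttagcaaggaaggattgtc
Hoxd8: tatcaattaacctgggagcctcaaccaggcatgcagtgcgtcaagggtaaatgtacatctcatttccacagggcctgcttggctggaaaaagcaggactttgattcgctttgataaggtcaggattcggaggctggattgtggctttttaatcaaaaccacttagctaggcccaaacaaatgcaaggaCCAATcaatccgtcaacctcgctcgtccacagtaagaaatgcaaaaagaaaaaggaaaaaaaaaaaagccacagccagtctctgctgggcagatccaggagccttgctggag
The capitals are TGACAG, the Meis motif, on the opposite strand in Hoxa3 and CCAAT in Hoxc4 (opposite strand) and Hoxd8, and Hoxb4 held no match. RefSeq windows matched 22 of the 39 members, with 24 windows. On both strands, CCAAT was in 62.5% of them and in 37.4% of all 32851 windows of this length, the Pbx-Hox motif TGATTNAT in 8.33% and 3.22%, TGACAG in 8.33% and 19.2%, and TATAAA in 16.7% and 13.6%. The Nr5a1 motif CAAGGTCA was in 0 of the 24 and 1.56% of all windows and the Sox motif AACAAT in 0 and 10.7%. A match describes letters and not a bound site.

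Hoxa3, an anterior Hoxa gene, was at 14.1 and 12.8 CPM in control XX against 1.17 and 2.05 CPM in control XY (adjusted p = 7.2e-05). Hoxa2 was at 3.78 and 4.12 against 0.235 and 0.507 CPM (3.48 ± 0.35, adjusted p = 2.5e-04), and Hoxa5 at 15.4 and 16.1 against 2.35 and 4.72 CPM (2.22 ± 0.28, adjusted p = 8.9e-04). The groups did not overlap, and the dKO XY libraries, at 1.95 and 1.90 CPM for Hoxa3, lay with control XY. Hoxb3 was at 9.55 and 8.26 against 3.33 and 3.97 CPM (1.35 ± 0.17) and Hoxc8 at 75.2 and 78.0 against 50.3 and 48.9 CPM (0.70 ± 0.09), also apart. How often groups of 2 libraries were apart over all genes was not counted. Nothing beyond the test is read from such separation, here or in the comparisons below.

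The members called lower, 3 of the 7 Hoxd genes tested, are a smaller share of the 32 members than the 13.3% of all genes called lower. Hoxd8 was at 36.9 and 38.1 CPM in control XX against 123 and 109 CPM in control XY (adjusted p = 7.7e-05), Hoxd9 at 85.1 and 79.8 against 197 and 181 CPM (-1.13 ± 0.10) and Hoxd10 at 30.7 and 31.1 against 67.0 and 56.5 CPM (-0.93 ± 0.13). Hoxd11, their posterior neighbour, was at 15.2 and 23.5 against 12.5 and 13.1 CPM and was not called.

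**Figure D3:**
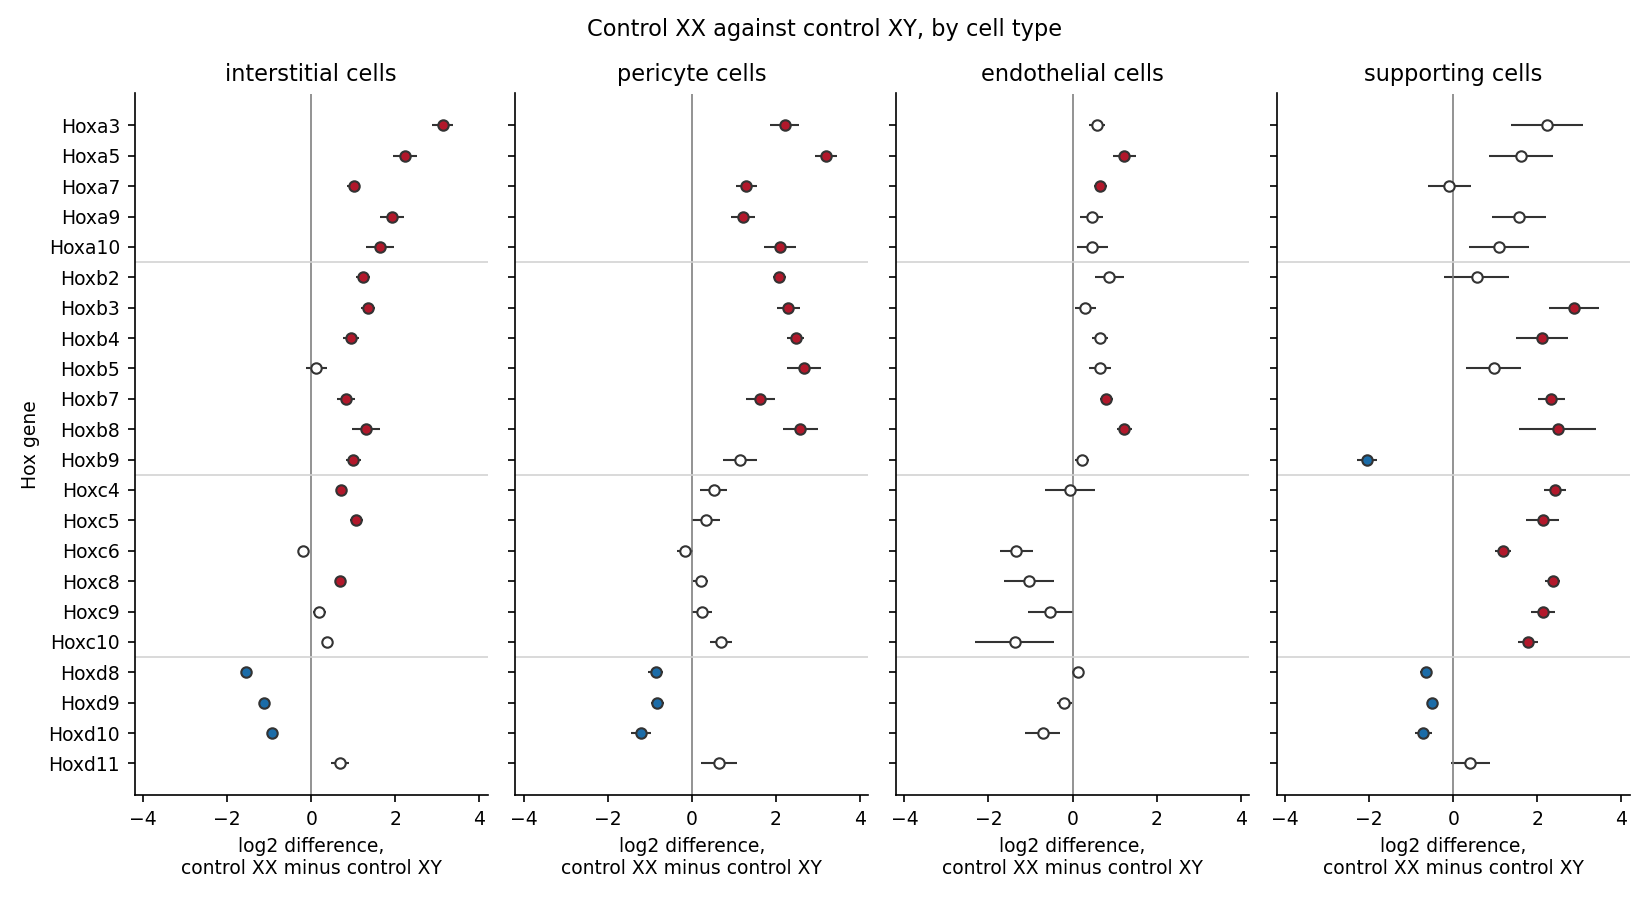
Log2 difference of control XX minus control XY for the members shown in the heat map (rows) in interstitial, pericyte, endothelial and supporting cells, with bars for the SE, red or blue points for members called higher or lower and white points for the rest. The called Hoxa and Hoxb members lie right of 0 in interstitial cells and pericytes, and Hoxd8, Hoxd9 and Hoxd10 lie left of 0 in the same cells.

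Interstitial cells were not the same mixture in the groups. In control XX, 1534 of 1543 and 2946 of 2952 cells fell into cluster 2, led by Il33, Gdf10 and Crabp1. The control XY libraries had 275 and 248 cells in it and the dKO XY libraries 659 and 322, and their other interstitial cells lay in cluster 0, led by Sostdc1, Msc and Inhba, and cluster 1, led by cell-cycle genes. The comparison above therefore sets cells of cluster 2 against XY cells mostly of clusters 0 and 1.

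The clusters of the XY libraries differed among themselves. The Hoxa sum of control XY was 13.6 ± 0.680 CPM in cluster 0, 15.4 ± 1.61 in cluster 1 and 91.0 ± 38.0 in cluster 2, beside 71.1 ± 2.16 CPM in cluster 2 of control XX. The Hoxd sum of control XY was 406 ± 25.8, 379.9 ± 29.6 and 209 ± 58.9 CPM, beside 174 ± 1.96 CPM. The endothelial markers moved with the Hoxa values, all 8 being detected in each cluster and their sum in control XY standing at 54.1 and 60.0 CPM in cluster 0, 50.2 and 56.6 in cluster 1 and 210.3 and 157 in cluster 2, beside 4968 and 4896 CPM in endothelial cells. Their part in these values was not tested. These are descriptions of cells clustered without the Hox genes.

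In cluster 2 alone, a fit chosen after seeing the data, 1 of 28 members was higher in control XX and 4 were lower, against 4.98% and 7.06% of 13453 genes. Hoxb9 (1.55 ± 0.30) was higher, and Hoxd8 (-0.63 ± 0.15), Hoxa7 (-1.11 ± 0.27), Hoxb4 (-1.30 ± 0.34) and Hoxb5 (-1.26 ± 0.35) were lower. Hoxa7, Hoxb4 and Hoxb5 had their highest mean in endothelial cells, and the endothelial markers were at 57.7 and 59.1 CPM in control XX and 210.3 and 157 CPM in control XY cells of this cluster, a part that was not tested. Hoxa3, at 14.1 and 12.9 against 5.69 and 16.6 CPM, was not called, and Hoxa5, at 15.495 and 16.1 against 10.3 and 47.0 CPM, turned to -0.80 ± 0.46. Hoxd9 turned to 0.14 ± 0.22 and Hoxb3 to -0.29 ± 0.27. The control XY libraries were far apart for Hoxa5 here. Calls turned over for Hoxa7 (1.01 ± 0.15 over all interstitial cells, -1.11 ± 0.27 in cluster 2, adjusted p = 0.020) and for Hoxb4 (0.95 ± 0.20, then -1.30 ± 0.34, adjusted p = 0.031). Hoxd8 and Hoxb9 were called in the same direction in both fits.

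**Figure D4:**
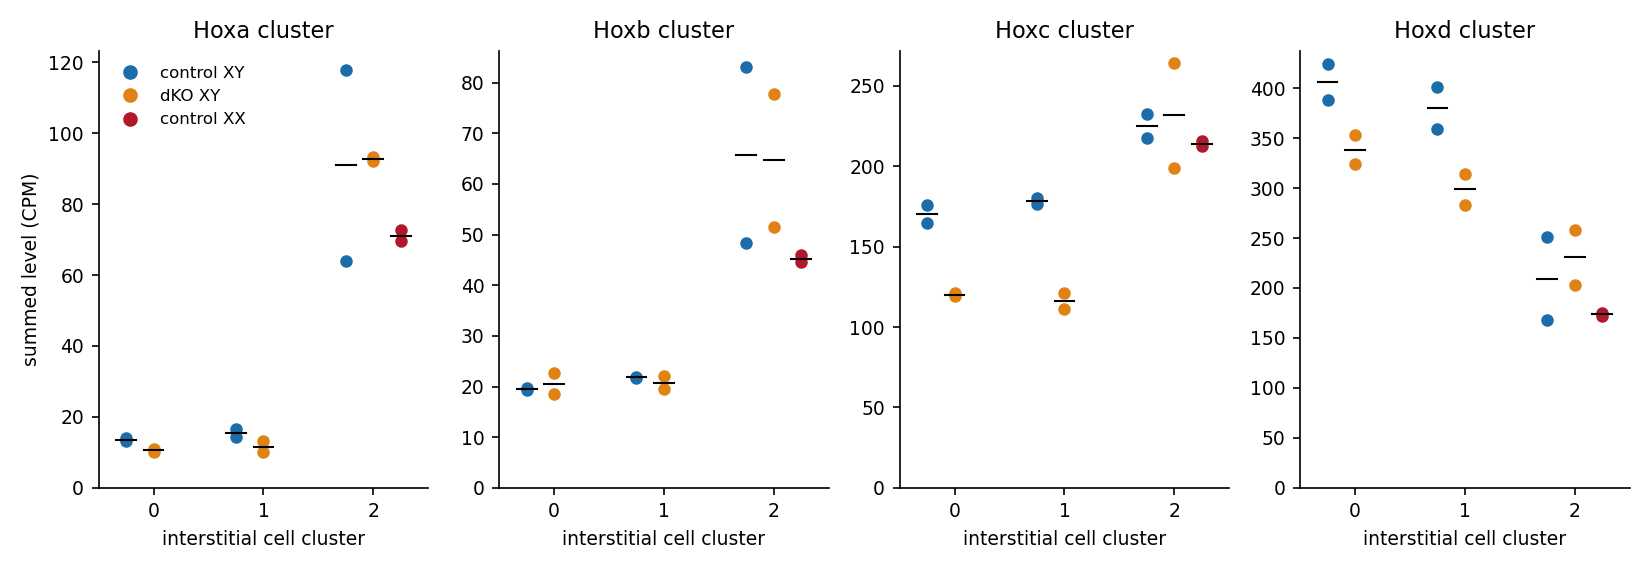
Summed CPM of the members of each Hox cluster in interstitial cell clusters 0, 1 and 2, with a point for each library, coloured by group, and a black line for the group mean. The Hoxa and Hoxb sums of the XY groups are higher in cluster 2 than in clusters 0 and 1, and the Hoxd sums lower.

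Pericytes showed a like division. Control XX had 12 of 26 members higher and 3 lower, against 2.63% and 4.72% of 11965 genes, with 6 Hoxa and 6 Hoxb genes higher and Hoxd9 (-0.82 ± 0.16), Hoxd10 (-1.21 ± 0.24) and Hoxd8 (-0.86 ± 0.17) lower. Hoxb2, a hindbrain patterning gene in the embryo, was at 92.5 and 94.5 CPM in control XX against 21.9 and 24.0 CPM in control XY (2.08 ± 0.16, adjusted p = 2.9e-06). Hoxa5 was at 34.1 and 35.8 against 3.35 and 4.52 CPM (3.19 ± 0.27, adjusted p = 5.3e-06). Hoxb4 was at 47.1 and 53.7 against 10.7 and 8.71 CPM (2.47 ± 0.21).

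The groups were apart for these 3 genes, and dKO XY pericytes, at 28.3 and 31.8 CPM for Hoxb2, lay nearer control XY. Hoxb3 (2.29 ± 0.27), Hoxb5 (2.67 ± 0.40), Hoxa3 (2.21 ± 0.34), Hoxb8 (2.58 ± 0.42) and Hoxa10 (2.09 ± 0.37) were higher too, Hoxb8 losing its call without control XX 2. Hoxd9 was at 64.1 and 53.0 CPM in control XX, 100.5 and 111 in control XY and 108 and 107 in dKO XY. The summed interstitial markers were 1920 ± 154 CPM in control XX and 3025 ± 140.3 CPM in control XY pericytes, and their part in the lower Hoxd values was not tested. The 8 endothelial markers summed to 271 and 215 CPM in control XX and 143 and 141 CPM in control XY pericytes, moving with the higher Hoxa and Hoxb values, and their part was not tested. The sums rest on 53 and 123 pericytes in control XX.

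In endothelial cells 4 of 24 members were higher in control XX and 0 lower, against 1.73% and 3.03% of 11984 genes, with 10 members at an unadjusted p under 0.05 and 3 called by DESeq2. Hoxb8 was at 27.8 and 27.7 against 10.97 and 12.9 CPM (1.24 ± 0.19, adjusted p = 0.0028). Hoxb7 (0.80 ± 0.15), Hoxa5 (1.23 ± 0.27) and Hoxa7 (0.66 ± 0.16) were higher too, but all 3 lost their calls without control XY 1, control XY 2 or control XX 2, each of which left 1 member called, and Hoxa7 also without control XX 1 and with DESeq2. Hoxd8 was at 50.9 and 48.1 against 47.1 and 46.7 CPM and was not called.

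Supporting cells were compared between control XX and control XY to ask which Hox genes differ between the granulosa and Sertoli lineages. Of 25 members 11 were higher in control XX and 4 lower, against 25.2% and 23.7% of 15934 genes. The share of members called lower is below that of all genes, and nothing is read from that count. All 6 Hoxc members tested were higher. Hoxc8 was at 41.0 and 43.1 CPM in control XX against 8.48 and 7.39 CPM in control XY (2.37 ± 0.18, adjusted p = 3.6e-06). Hoxc4 (2.42 ± 0.27), Hoxc9 (2.14 ± 0.28), Hoxc10 (1.78 ± 0.24), Hoxb7 (2.33 ± 0.32), Hoxc6 (1.18 ± 0.18) and Hoxc5 (2.13 ± 0.39) were higher as well. The 7 epithelial markers moved with them, summing to 52.1 and 61.6 CPM in control XX and 8.35 and 7.13 CPM in control XY supporting cells, beside 1315 and 1319 CPM in control XX epithelial cells, and their part in the Hoxc values was not tested.

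Hoxb9 moved in the other direction. Control XX supporting cells held 9.54 and 6.16 CPM of it, below the 27.8 and 35.9 CPM of control XY and the 42.4 and 32.5 CPM of dKO XY (-2.05 ± 0.23, adjusted p = 4.9e-05 against control XY). Hoxb7, of the same cluster, went from 1.47 and 0.907 CPM in control XY to 5.45 and 6.35 CPM in control XX. Hoxd8 (-0.66 ± 0.14), Hoxd9 (-0.50 ± 0.13) and Hoxd10 (-0.71 ± 0.19) were also lower in control XX. The summed interstitial markers were 1169 ± 91.2 CPM in control XY and 597 ± 132 CPM in control XX supporting cells, moving with these Hoxd values.

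Against interstitial cells of the same libraries, 27 of 31 members were lower and 1 higher in control XY supporting cells (31.1% and 29.2% of 17363 genes). In control XX 29 of 31 were lower and 0 higher (35.1% and 34.5%), with 30 at an unadjusted p under 0.05 and 27 called by DESeq2. The member higher in XY was Hoxb9, at 27.8 and 35.9 CPM against 4.34 and 4.72 CPM in interstitial cells (2.74 ± 0.12, adjusted p = 2.2e-08). In control XX it was lower in supporting cells (-0.39 ± 0.12). Hoxd9 (-2.54 ± 0.08), Hoxd8 (-2.63 ± 0.08), Hoxc6 (-2.33 ± 0.09) and Hoxc8 (-2.73 ± 0.11) led the lower members in control XY, and Hoxd9 (-1.95 ± 0.07), Hoxd10 (-2.78 ± 0.11), Hoxd11 (-4.03 ± 0.16), Hoxd8 (-1.78 ± 0.07) and Hoxa3 (-5.26 ± 0.22) in control XX.

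The XX against XY contrast itself differed between supporting and interstitial cells for 12 of 31 members, more positive in supporting cells for 10 and more negative for 2, against 21.9% and 23.6% of 17363 genes. Hoxb9 differed most (-3.13 ± 0.17, adjusted p = 3.3e-07), being lower in XX supporting cells and higher in XX interstitial cells. Hoxc8 (1.63 ± 0.14), Hoxc6 (1.33 ± 0.11), Hoxc4 (1.66 ± 0.22) and Hoxc9 (1.84 ± 0.26) were more positive in supporting cells.

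Supporting cells were then divided by subclusters of the cells with low Sycp3 and Tcf21, markers of germ and interstitial cells. In the control XY libraries 190 and 407 cells were Sertoli-like, in the dKO XY libraries 676 and 420, and a granulosa-like subcluster held 1699 and 554 cells of control XX. A further 1053 and 362 control XX cells lay in a subcluster whose leading class was interstitial and are not part of the granulosa-like class. The dKO XY cells outside the Sertoli-like subclusters (496 and 465 cells) lay mostly in a subcluster that the marker rule named Leydig. That name was not used for them here. Interstitial markers summed to 303 ± 91.4 CPM in control XY Sertoli-like and 302 ± 2.503 CPM in granulosa-like cells, a difference within the SD. The epithelial markers summed to 9.12 and 8.26 CPM in control XY Sertoli-like, 23.0 and 19.7 CPM in dKO XY cells outside the Sertoli-like subclusters and 50.7 and 66.9 CPM in granulosa-like cells, moving with the Hoxc values of these classes, and their part was not tested.

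Between these classes, in a fit chosen after seeing the data, 11 of 18 members were higher in granulosa-like cells and 1 lower, against 27.5% and 26.5% of 14934 genes. Hoxc8 was at 45.5 and 48.1 CPM in granulosa-like against 2.82 and 1.90 CPM in Sertoli-like cells (4.29 ± 0.25, adjusted p = 1.2e-07). Hoxc4 was at 16.5 and 16.6 against 0.995 and 1.74 CPM (3.40 ± 0.25) and Hoxb9 at 9.88 and 5.40 against 30.7 and 40.1 CPM (-2.25 ± 0.24, adjusted p = 1.7e-05). The groups were apart for each of these genes.

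Hoxd8 and Hoxd9 turned between these comparisons. Hoxd9 was at 23.2 and 20.97 CPM in granulosa-like and 6.80 and 7.02 CPM in Sertoli-like cells (1.58 ± 0.17, adjusted p = 1.7e-05), and Hoxd8 at 13.2 and 11.8 and 3.98 and 4.71 CPM (1.42 ± 0.19, adjusted p = 9.3e-05), whereas both were lower in control XX over all supporting cells. Their direction between the sexes thus differed between these comparisons, while Hoxb9 and the 6 Hoxc genes were called in the same direction in both. The summed interstitial markers given above were lower in Sertoli-like cells than over all control XY supporting cells. Their part in the turn of Hoxd8 and Hoxd9 was not tested.

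**Figure D5:**
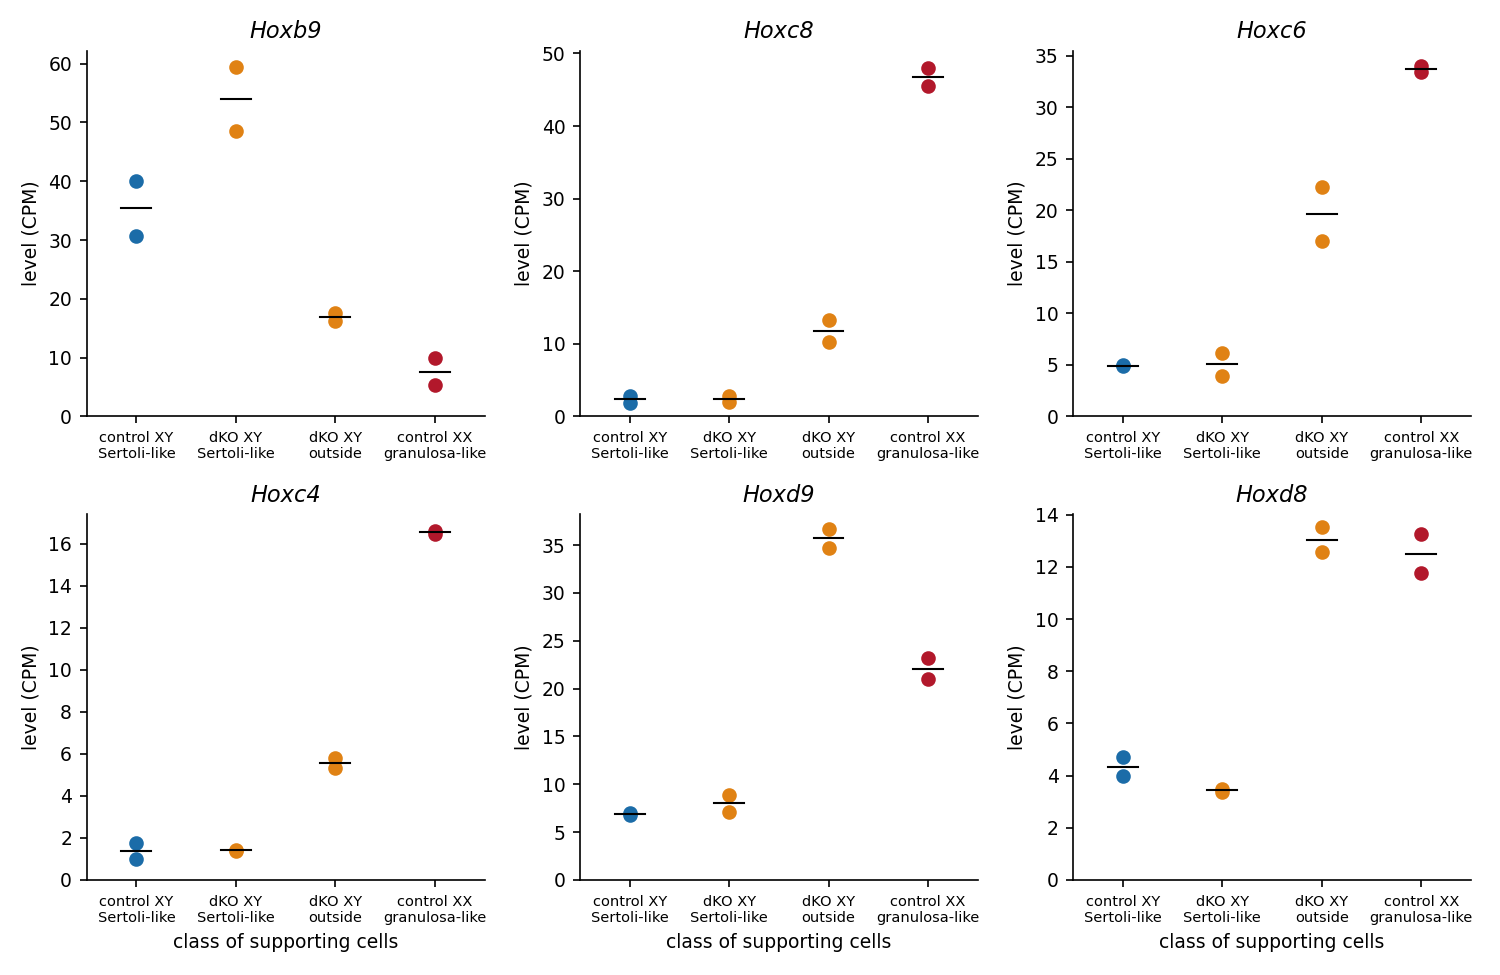
CPM of single members (panels) in 4 classes of supporting cells, control XY Sertoli-like, dKO XY Sertoli-like, dKO XY outside the Sertoli-like subclusters and control XX granulosa-like, with a point for each library and a black line for the mean. Hoxb9 is higher in the Sertoli-like cells of both genotypes than in the other classes, and Hoxc8 is highest in granulosa-like cells.

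The dKO XY gonads were compared with control XY to ask whether Hox levels differ without Amh and Inhbb. In supporting cells 1 of 25 members was higher and 2 were lower, against 10.0% and 6.85% of all genes. The shares of members are below or close to these, and nothing is read from the counts. Hoxd8 was at 10.1 and 9.07 against 19.8 and 19.3 CPM (-1.02 ± 0.14, adjusted p = 0.0011), Hoxd9 at 24.7 and 25.5 against 37.6 and 31.4 CPM (-0.44 ± 0.13, adjusted p = 0.047) and Hoxb7 at 2.27 and 2.96 against 1.47 and 0.907 CPM (1.22 ± 0.34, adjusted p = 0.035). Hoxd9 lost its call when any of the 6 libraries was left out, and Hoxb7 without dKO XY 2 or control XY 2, each of which left 1 member called. Interstitial markers moved with the Hoxd genes, at 625 ± 59.2 CPM in dKO XY and 1169 ± 91.2 CPM in control XY. With cells of more than 1500 genes Hoxd8 was not called and Hoxd9 turned to 0.53.

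Between dKO XY and control XY Sertoli-like cells edgeR called 0 of 18 members, against 8.37% higher and 5.52% lower among 14934 genes, with 3 at an unadjusted p under 0.05 and 0 called by DESeq2. Hoxd8 and Hoxd9, called lower in dKO XY over all supporting cells, were thus not called here. The supporting cells of the groups lay in different clusters, with 416 and 433 dKO XY cells and 13 and 16 control XY cells in cluster 9. Without control XY 1, control XX 1 or control XX 2 it called 1. Hoxd8 was at 3.499 and 3.37 against 3.98 and 4.71 CPM and Hoxc8 at 1.94 and 2.79 against 2.82 and 1.90 CPM. Hoxb9, at 59.5 and 48.5 against 30.7 and 40.1 CPM, did not overlap between the groups and was not called.

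For the dKO XY cells outside the Sertoli-like subclusters, 11 of 18 members were higher and 1 lower than in the Sertoli-like cells of control XY, against 22.0% and 18.7% of all genes. Hoxd9 was at 36.7 and 34.7 against 6.80 and 7.02 CPM (2.41 ± 0.17, adjusted p = 1.5e-06) and Hoxc8 at 10.3 and 13.4 against 2.82 and 1.90 CPM (2.45 ± 0.26). Hoxc6 (2.05 ± 0.24), Hoxd8 (1.61 ± 0.20), Hoxc10 (2.81 ± 0.37), Hoxc4 (1.98 ± 0.27), Hoxd10 (1.82 ± 0.37) and Hoxc5 (2.53 ± 0.57) were higher too, Hoxc5 losing its call without control XY 2, where 8 members were called. Hoxd8 and Hoxd9 were thus higher in these cells than in control Sertoli-like cells, opposite to their direction over all supporting cells. Hoxb9, at 17.6 and 16.2 CPM, was lower (-1.03 ± 0.24). These cells carried 731 ± 3.61 CPM of interstitial markers against 303 ± 91.4 CPM, and the part of that RNA in the higher Hoxc and Hoxd values was not tested.

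Against control XX granulosa-like cells the same dKO XY cells had 5 of 18 members higher and 6 lower, against 17.5% and 13.2% of all genes. Hoxc8 (-1.83 ± 0.19), Hoxc4 (-1.42 ± 0.19), Hoxc5 (-1.47 ± 0.34) and Hoxc9 (-0.98 ± 0.26) were lower and Hoxd9 (0.83 ± 0.15), Hoxb9 (1.22 ± 0.24), Hoxa7 (2.18 ± 0.47) and Hoxa9 (2.30 ± 0.57) higher. Without control XX 1 the test called 6 members and without control XX 2 it called 7. Hoxa7 and Hoxc9 lost their calls without dKO XY 2 or control XX 1, Hoxa9 without dKO XY 1 or either control XX library, and Hoxa7 and Hoxa9 with DESeq2. For Hoxb9, Hoxc4, Hoxc5, Hoxc6, Hoxc8 and Hoxc9 these cells lay between Sertoli-like and granulosa-like cells and were called against each. The summed interstitial markers given above were higher in these dKO XY cells than in granulosa-like cells. Their part in the members called higher was not tested.

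In interstitial cells 1 of 32 members was higher in dKO XY and 4 were lower, against 4.17% and 2.91% of all genes. Hoxc8 was at 34.1 and 37.0 against 50.3 and 48.9 CPM (-0.49 ± 0.09, adjusted p = 0.021), Hoxc4 at 12.6 and 12.3 against 16.9 and 18.6 CPM (-0.51 ± 0.10) and Hoxc6 at 43.6 and 54.3 against 72.6 and 67.4 CPM (-0.53 ± 0.11). Hoxd8 was at 83.1 and 71.2 against 123 and 109 CPM (-0.59 ± 0.12) and Hoxb9 at 7.75 and 8.17 against 4.34 and 4.72 CPM (0.81 ± 0.17). The groups were apart for all 5, and nothing is read from that. The calls were lost without control XY 1 or without control XY 2, and some of them without dKO XY 1 or without dKO XY 2. The summed interstitial markers were 5041 ± 52.2 CPM in dKO XY and 7253 ± 215 CPM in control XY, and their part in the lower Hoxc values was not tested. The Sertoli markers of these interstitial cells, given with the Leydig cells, were higher in dKO XY and moved with Hoxb9. Their part in the Hoxb9 values was not tested, here or within the clusters below.

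Within interstitial clusters, a division chosen after seeing the data, cluster 0 gave 1 of 29 members higher in dKO XY and 6 lower, against 6.20% and 4.54% of 15589 genes, and cluster 1 gave 1 of 27 higher and 6 lower, against 4.95% and 3.64% of 15429 genes. In both, Hoxb9 was higher and Hoxc4, Hoxc6, Hoxc8, Hoxc10, Hoxd8 and Hoxd11 were lower. Hoxc8 differed by -0.58 ± 0.11 in cluster 0 and -0.73 ± 0.08 in cluster 1, and Hoxb9 by 1.000 ± 0.13 and 0.75 ± 0.12. In cluster 2 edgeR called 0 of 28 members, with 3 at an unadjusted p under 0.05, against 0.0372% higher and 0.00% lower of 13453 genes. DESeq2 was not run on single clusters.

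In Leydig cells 3 of 22 members were lower in dKO XY and 0 higher, against 2.18% and 3.94% of 14429 genes, with 6 at an unadjusted p under 0.05 and 4 called by DESeq2. Hoxc6 was at 19.5 and 21.9 against 30.4 and 27.8 CPM (-0.52 ± 0.10, adjusted p = 0.028), Hoxc10 at 3.87 and 3.53 against 6.58 and 5.91 CPM (-0.78 ± 0.17) and Hoxc8 at 8.85 and 11.8 against 16.2 and 15.03 CPM (-0.62 ± 0.15). The groups were apart for these genes. Without control XY 1 none was called, Hoxc8 lost its call without dKO XY 1 and Hoxc10 without dKO XY 2.

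In endothelial cells Hoxb8 was the member called of 24, at 21.2 and 27.3 CPM in dKO XY against 10.97 and 12.9 CPM (0.99 ± 0.19, adjusted p = 0.042), against 0.225% higher and 0.317% lower of all genes. The call was lost without dKO XY 2, control XY 1 or control XY 2. In pericytes edgeR called 0 of 26, with 7 at an unadjusted p under 0.05 and 0 called by DESeq2, against 0.117% higher and 0.0669% lower of all genes. The dKO contrast differed between supporting and interstitial cells for 4 of 31 members, 2 in each direction, against 8.36% and 11.7% of all genes, and 1 was called without dKO XY 2 or control XY 2 and 2 without control XY 1.

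The partners and regulators of Hox genes were read from lists. All 9 TALE cofactors were lower in supporting than in interstitial cells of control XY, against 31.1% of all genes, among them Meis2 (24.0 against 163 CPM, -2.81 ± 0.12) and Pbx3 (28.7 against 113 CPM, -2.05 ± 0.11). In control XX 3 of 9 were higher and 6 lower, against 34.5% and 35.1%. Endothelial cells had 8 of 9 lower and 0 higher, immune cells 8 and 1 and Leydig cells 7 and 0, all against interstitial cells. The shares of all genes called lower were 38.1%, 33.1% and 40.3%. In dKO XY cells outside the Sertoli-like subclusters 8 of 9 were higher and 0 lower than in control XY Sertoli-like cells, against 22.0% and 18.7%. The summed interstitial markers, given above, were also higher in these dKO XY cells, and their part was not tested. Between control XX and control XY interstitial cells 2 of 9 were higher, among them Meis1 (156 against 90.01 CPM, 0.86 ± 0.09), and 3 lower, against 12.0% and 13.3% of all genes. The XX and XY interstitial cells lay mostly in different clusters, and the part of that was not tested. In pericytes 2 of 9 were higher in control XX and 1 lower, against 2.63% and 4.72%, with Meis2 at 215 against 78.7 CPM (1.49 ± 0.15). In control XX supporting cells 4 of 9 were higher and 3 lower, against 25.2% and 23.7%, with Pbx3 at 97.5 against 28.7 CPM (1.71 ± 0.14).

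Of 13 Hox regulators, among them the Polycomb genes that keep Hox clusters silent, 10 were tested in supporting cells, and 2 were higher and 2 lower in control XX, shares below the 25.2% and 23.7% of all genes, so nothing is read from the list. Gdf11, a signal that sets posterior Hox codes along the axis, was at 18.2 against 3.99 CPM (2.16 ± 0.19), and Ezh2, the Polycomb methyltransferase, at 43.9 against 143 CPM (-1.75 ± 0.14). Ring1 (0.57 ± 0.14) was higher and Cbx2 (-1.29 ± 0.18) lower.

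Noncoding neighbours of the Hoxa and Hoxb members were compared between control XX and control XY. In interstitial cells 2 of 5 were higher, against 12.0% of all genes, Hotairm1 at 9.82 against 1.68 CPM (2.63 ± 0.24) and Hoxaas3 at 5.43 against 0.834 CPM (2.77 ± 0.20). As for the Hox members, these XX and XY cells lay mostly in different clusters, and the part of that was not tested. In pericytes 3 of 3 were higher, against 2.63% of all genes, Hoxb3os (2.16 ± 0.28), Hotairm1 (1.79 ± 0.31) and Hoxaas3 (2.86 ± 0.57), and in endothelial cells 4 of 4, against 1.73%, Hoxaas3 (1.47 ± 0.20), Hotairm1 (1.10 ± 0.23), Halr1 (2.64 ± 0.62) and Hoxb3os (1.19 ± 0.30). The endothelial markers, given above, were higher in control XX than in control XY pericytes. Their part in the pericyte values was not tested. Hoxaas3 shares exon bases with Hoxa3 and Hoxa7, and Hoxb3os with Hoxb2 and Hoxb3, all on opposite strands. How the counting used strand is not given in the sources used here, so the reads of these pairs cannot be told apart with certainty.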

How the data were processed

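Droplet libraries of E15.5 mouse gonads were aligned by the authors to mm10 with Cell Ranger, and the deposited matrices hold raw UMI counts per gene and barcode, corrected for barcode swapping. Per the labels, later steps used Seurat 4.0. The cell filter of the study was applied to the deposited counts (more than 2500 and fewer than 9000 genes, under 25% mitochondrial and under 20% Hbb UMIs). Cells were clustered in Seurat 5.3.0 with the Hox genes removed from 3000 variable genes (20 components, resolution 0.21), supporting cells of log-normalised Sycp3 and Tcf21 under 1 were divided with 8 components at resolution 0.25, and clusters were named from marker lists. Scrublet (scanpy 1.11.5) marked cells unevenly between libraries, and no doublets were removed. Marked were 250 of 8151 cells for dKO XY 1, 144 of 5701 for dKO XY 2 and 79 of 5330 for control XX 1. The threshold marked 4 cells for control XY 2, 2 for control XX 2 and 1 for control XY 1. An alternative left out the 8% of highest score. Beyond this alternative, the part of the uneven marking in the dKO XY comparisons was not tested.

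Counts were summed per library and cell type (10 cells or more) and tested across all genes with edgeR 4.0.16 (filterByExpr, TMM, quasi-likelihood, Benjamini-Hochberg adjusted p under 0.05). The 3 groups were fitted together, and cell types were compared with the library as a block. SE is the log2 fold change divided by the root of F. CPM uses a total of 1000000. The test was checked on simulated data with 200 changed genes. For dKO XY against control XY supporting cells it recovered 64% of log2 changes of 1, and 7.93% of its calls were false. For control XX against control XY pericytes these were 54% and 5.41%, and for endothelial against interstitial cells 74% and 4.62%. DESeq2 1.42.0, other filters and resolutions, and leaving out each library were alternatives.

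Named genes were the 5 members of highest mean CPM per cell type, at most 8 called members of smallest p per comparison, and at most 4 called genes per list and comparison. A few members beyond this rule (Hoxb9 and Hoxd1 in comparisons of cell types, Hoxd members in pericytes and XX supporting cells, and the promoters shown) were chosen after their values were seen. The members and lists were chosen with earlier results of these data known. The 6 libraries carried 118475468 to 221675316 UMIs in kept cells, and SDs of 2 libraries are imprecise. The annotation release used for counting and the captured transcript end are not given in the sources used here. A few genes of the lists are not reported here by name.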

Additional observations from a re-analysis of the deposited data

Results flagged for a closer look

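The change from control XY to control XX differed between supporting and interstitial cells for 12 of 31 members, by the interaction term of edgeR's quasi-likelihood test with Benjamini-Hochberg adjustment. It was more positive in supporting cells for 10 and more negative for 2, against 21.9% and 23.6% of 17363 genes. All genes gave 7888 calls, a larger share than that of the members. Each value is the log2 change in supporting cells minus that in interstitial cells. Hoxb9 (-3.13) and Hoxa7 (-1.20) had the more negative change in supporting cells. Hoxc8 (1.63), Hoxc6 (1.33), Hoxc4 (1.66), Hoxc9 (1.84), Hoxc10 (1.37) and Hoxc5 (1.06), all the Hoxc members tested in supporting cells, had the more positive one, as did Hoxd8 (0.85), Hoxd9 (0.59), Hoxb7 (1.497) and Hoxb3 (1.51). The XX and XY interstitial cells behind these values lay in different clusters, and the part of that in the differences was not tested.

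The change from control XY to dKO XY differed for 4 of 31 members, Hoxd8 (-0.49), Hoxb9 (-0.63), Hoxb3 (1.95) and Hoxc10 (0.91). Among 17363 genes 8.36% were more positive in supporting cells and 11.7% more negative. These 3479 calls are a larger share than that of the members. Hoxb9, Hoxb3 and Hoxc10 lost the call without dKO XY 2 or control XY 2, Hoxb3 and Hoxc10 also without control XY 1, and Hoxd8 without dKO XY 1 or control XY 2. With cells of more than 1500 genes the Hoxd8 difference reversed to 0.44.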

How the results depend on the processing

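Of the values for the genes that the naming rule selected in each comparison, 1726 kept their direction and side of the threshold under the alternatives, 123 kept the direction but lost the call, and 5 reversed. Of the counts and means, 272 stayed within 1.5 times or 1 SD, and 38 did not. Changing TMM to RLE scaling altered no call of these genes, and it shifted the median of all genes by over 0.1 only in the immune comparison (-0.107).

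Between dKO XY and control XY, 3 members were called in supporting cells, but 1 with cells of more than 1500 genes and 1 with only the 2 groups compared. In interstitial cells 5 became 3 at resolution 0.5 and 0 in interstitial cluster 2 alone. With no filter on low counts, 1 became 2 in endothelial cells, 0 became 2 in pericytes, 3 became 6 in Leydig cells and 0 became 3 in Sertoli-like cells. The 4 differences of this contrast between supporting and interstitial cells became 8 with no filter and 9 with more than 1500 genes. In interstitial cluster 2 alone the 21 members called between control XX and control XY became 5, where Hoxd9 reversed to 0.14, Hoxb3 to -0.29 and Hoxa5 to -0.80. Beyond the genes that the rule selected there, Hoxb4 (-1.30) and Hoxa7 (-1.11) also reversed in cluster 2, both called lower, as did, without a call, Hoxb8 (-1.07), Hoxb7 (-0.80), Hoxb2 (-0.41), Hoxa4 (-0.37), Hoxc5 (-0.18), Hoxc4 (-0.15) and Hoxa10 (-0.10), all called higher in control XX over all interstitial cells. With more than 1500 genes Hoxd9 in dKO XY supporting cells reversed to 0.53 and the Hoxd8 difference of contrasts to 0.44. The cause was not tested.

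The replicate numbers did not pair the samples (correlations of deviations from -0.213 to 0.137). With a replicate block the dKO XY counts became 1 in supporting and 0 in interstitial cells, and the other counts stayed within 1.5 times. Crossed pairing, added after seeing the data, gave 27 calls in interstitial cells and 15 in pericytes between control XX and control XY. Without the block, the 18 calls of pericytes against interstitial cells became 8 and the 8 of epithelial cells 2.

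Leaving out a library gave, between dKO XY and control XY, 1 to 3 calls in supporting, 0 to 5 in interstitial, 0 to 1 in endothelial, 0 to 0 in pericyte, 0 to 4 in Leydig and 0 to 1 in Sertoli-like cells. Between control XX and control XY it gave 12 to 16 in supporting, 17 to 25 in interstitial, 1 to 5 in endothelial and 10 to 16 in pericyte cells. Against interstitial cells it gave 21 to 28 for control XY supporting, 26 to 30 for control XX supporting, 26 to 28 for Leydig, 23 to 25 for endothelial, 17 to 18 for pericyte, 19 to 23 for immune, 5 to 8 for epithelial and 25 to 28 for germ cells. The differences of contrasts ranged from 1 to 6 for dKO XY and 8 to 12 for control XX. The dKO XY cells outside the Sertoli-like subclusters gave 8 to 14 against Sertoli-like and 6 to 11 against granulosa-like cells.

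Thinned to 10000 UMIs, cells held 3.89 members in pericytes, 3.54 in epithelial, 3.35 in interstitial, 2.82 in endothelial, 1.54 in Leydig, 1.18 in supporting, 0.439 in germ and 0.404 in immune cells.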
